A study of Bos taurus with 42 samples.

Results

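The 495 minor piRNA clusters described here are genomic intervals that each gave rise to 1 to 9 entries in a table of bovine small RNAs. An entry is 1 annotation string, which names up to 3 mapping positions. The cluster of an entry was taken from the first of them. The table held 12345 entries, of which 9474 carried a piRNA cluster name, and these fell into 616 clusters. The minor clusters were 495 of the 616, but they held only 1443 entries, 15.2% of all piRNA entries. The other 121 clusters comprised 84 with 10 to 49 entries and 37 with 50 or more.

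The study profiled RNA under 200 nt from cattle, in 42 libraries and 12 groups, with an Ion Proton sequencer. Primary fibroblasts (Fb, 3 libraries) had been grown from an ear biopsy of a single Brahma Spanish bull cross, and MII stage oocytes (Oo, 3 libraries) are mature eggs arrested before fertilisation. Embryos made by somatic cell nuclear transfer (NT) and by in vitro fertilisation (IVF) were collected at the 2-cell stage on day 2 (4 NT and 4 IVF libraries), at the 8-cell stage on day 3 (4 NT and 3 IVF), as morulae on day 6 (3 NT and 4 IVF) and as blastocysts on day 8 (4 NT and 3 IVF), in pools of 20. Blastocyst-derived cells (BDC, 3 NT and 4 IVF libraries) complete the set, and the labels say nothing of how they were derived or cultured. Fibroblasts and BDC are called somatic-cell libraries below. Nothing in the labels says whether the Fb or the BDC libraries came from separate cultures, so p-values measure only the spread between these libraries, which may be technical.

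Piwi-interacting RNAs (piRNAs) are small RNAs bound by PIWI proteins, a germline branch of the Argonaute family. They are cut from long transcripts of genomic clusters, and they guide the silencing of transposons in germ cells. In mammals they are abundant in testis and, in cattle, also in oocytes, while most somatic tissues carry few. A cluster name in the table says where a read maps. Read lengths and the chemical end modification of mature piRNAs are not used here, so whether the reads found in somatic cells are piRNAs was not tested.

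Most minor clusters rested on very few entries: 195 had 1 entry, 95 had 2, 59 had 3, 42 had 4, and 104 had 5 to 9. They lay on 30 chromosomes, with 35 on chromosome 8, 32 on chromosome 3 and 16 on the X chromosome. Their median length was 8941 bases, against 8905 bases for the larger clusters, and they ranged from 5004 to 198019 bases. Coordinates are those of the table, on UMD3.1 (bosTau8), the build named in the submitters' processing notes. Only 15 of the 495 overlapped a larger cluster. The minor clusters also held more entries that point to a single place: 606 of their 1443 entries (42.0%) named 1 cluster alone, against 207 of the 8031 entries of larger clusters (2.58%). A first hit without a mismatch was found for 28.7% of minor entries and 23.2% of larger ones. On either side of the limit, the 19 clusters with 9 entries had a mean of 8.61 to 746 reads per 1000000 listed reads (RPM) in oocytes (median 77.8), and the 6 clusters with 10 entries had 13.5 to 311 (median 149.8).

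Levels are given in RPM, which sets a library's listed reads to the same sum. PiRNA clusters held 89.9% of listed reads in oocytes and 0.561% in fibroblasts. The RPM of a cluster can therefore rise where the reads of other clusters fall, with no change in its amount. How much of each RPM difference comes from this was not tested. The listed reads ranged from 25119 to 3081186 (median 608572). Every one of the 12345 entries was found in the NT 2-cell library 4, against 423 to 8919 entries in each of the other 41 libraries, so the list of minor clusters is the list seen in that library. The IVF morula library 3 had only 25119 listed reads, and its levels rest on few counts. The IVF morula library 1 stood apart in its make-up, with 0.143% of its listed reads in piRNA clusters against 74.4% to 80.5% in the IVF morula libraries 2 and 4. Summed levels of 9 fibroblast miRNAs (such as miR-145, miR-199a and miR-214) were 9204, 98593 and 82829 in the Fb libraries 1, 3 and 4, 165416 to 207007 in NT BDC, 85483 to 204561 in IVF BDC, and 1440 to 4218 in oocytes, and 86939 in the IVF morula library 1. Of 5 cumulus-cell miRNAs, 4 were listed, and their sum was 2.87, 21409 and 61.4 in the Fb libraries 1, 3 and 4. It was 13270 to 24931 in NT BDC, 24.9 to 24436 in IVF BDC and 381 to 1064 in oocytes. Of 5 epithelial miRNAs, 3 were listed, with sums of 0, 0 and 5.21 in the Fb libraries, 6551 to 12712 in NT BDC, 12.7 to 15436 in IVF BDC and 381 to 545 in oocytes. The lowest IVF BDC value of both lists was that of the library 2, and the other 3 IVF BDC libraries had at least 5605 and 6008. In the IVF morula library 1 the cumulus-cell and epithelial sums were 6989 and 9164, and in the IVF BDC library 1 they were 5605 and 6008. Of 4 blood miRNAs, 3 were listed, with at most 78.8 in fibroblasts, where miR-486 was at 0. The IVF BDC library 2 thus stood apart from the other BDC libraries. The Fb library 3 differed from the other Fb libraries in its cumulus-cell markers and in its leading minor cluster, as given below. The Fb library 1 had by far the lowest fibroblast sum of the Fb libraries, 9204, under the 9660 to 15109 of IVF blastocysts. The part of the cell make-up in these differences was not tested. The 2 clusters that are largest in oocytes, on chromosomes 6 and 17, held 289024 to 304750 and 151900 to 165439 RPM in oocytes but at most 51.5 in fibroblasts and 8.11 in BDC.

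Minor clusters were a small share of the piRNA reads in the germ line and early embryo, and nearly all of them in somatic cells. They took 97.7% ± 1.75 of the piRNA reads in fibroblasts (95.7% to 98.8%, SD, n = 3) and 3.47% ± 0.110 in oocytes (3.35% to 3.57%, n = 3). In NT and IVF 2-cell embryos they took 3.85% ± 0.122 and 3.82% ± 0.242 (n = 4 each), and in 8-cell embryos 3.92% ± 0.125 (NT, n = 4) and 4.05% ± 0.128 (IVF, n = 3). The share was 4.51% ± 0.208 in NT morulae (n = 3). In IVF morulae it was 95.8% and 21.6% in the libraries 1 and 3 that stand apart, and 4.52% and 4.09% in the libraries 2 and 4. NT blastocysts reached 7.06% ± 1.06 (n = 4) and IVF blastocysts 6.07% ± 0.464 (n = 3), all above the oocytes. In NT BDC the share was 91.2% ± 6.16 (84.1% to 95.4%, n = 3) and in IVF BDC 94.0% ± 4.26 (89.5% to 98.0%, n = 4), so fibroblasts and BDC stood far from every oocyte and blastocyst library. A cluster counts as minor or larger by its listed entries, all of which were seen in the NT 2-cell library 4. Larger clusters are thus those with many entries in an embryo library. The part of this rule in the shares was not tested.

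The share says nothing of the amount. As a part of all listed reads, the minor clusters made up 0.545% ± 0.286 in fibroblasts and 3.12% ± 0.131 in oocytes (SD, n = 3 each), 5.72-fold lower in fibroblasts. The larger clusters made up 0.0162% in fibroblasts and 86.8% in oocytes, 5374-fold lower in fibroblasts. Without the Fb library 3, which had 0.0384%, they made up 0.00504% in fibroblasts, 17231-fold lower. In bulk libraries fewer cells of a type and less RNA per cell cannot be told apart. The same step was seen between BDC and blastocysts: minor clusters were 0.0685% of listed reads in NT BDC and 1.43% in NT blastocysts, and 0.160% in IVF BDC and 1.67% in IVF blastocysts. Larger clusters fell to 0.00646% in NT BDC (0.00300% to 0.0110%), against 19.4% in NT blastocysts, and to 0.00814% in IVF BDC (0.00385% to 0.0140%), against 25.8% in IVF blastocysts.

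**Figure D1:**
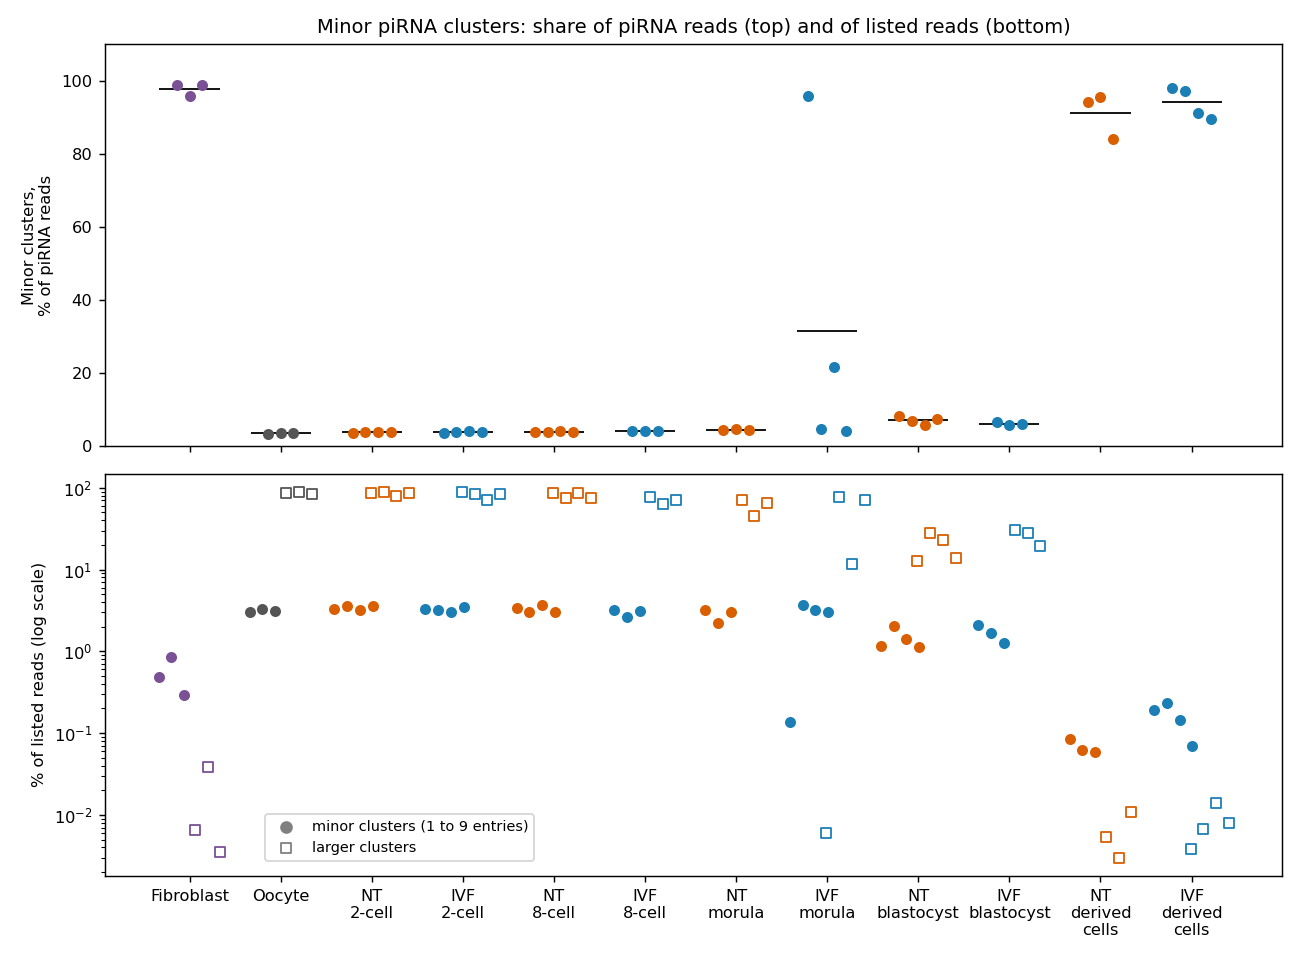
Share of piRNA reads in minor clusters (top, percent, with the group mean as a line) and the percent of listed reads in minor clusters (circles) and larger clusters (squares) on a log scale (bottom), with 1 point per library. Minor clusters hold 95.7% to 98.8% of piRNA reads in fibroblasts and 3.35% to 3.57% in oocytes, while both kinds of cluster are a smaller part of listed reads in fibroblasts and derived cells than in oocytes.

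None of 12 comparisons of the share passed a two-sided exact permutation test over libraries after Benjamini-Hochberg adjustment. For Fb against Oo the difference was 94.3 percentage points (exact p = 0.1, the smallest that 3 against 3 libraries allow, adjusted 0.2), and for IVF blastocysts against oocytes it was 2.60 points with the same p. NT blastocysts exceeded oocytes by 3.59 points, NT BDC exceeded NT blastocysts by 84.1 and IVF BDC exceeded IVF blastocysts by 87.9, each with an exact p of 0.0286, the smallest possible there (adjusted 0.114). NT BDC lay 6.55 points under fibroblasts (exact p = 0.1, adjusted 0.2) and IVF BDC 3.75 points under (exact p = 0.286, adjusted 0.381). NT and IVF libraries overlapped at every stage, with exact p between 0.2 and 0.857. The difference at the morula stage was -27.0 points with all libraries and 0.202 points, the other sign, without the IVF morula libraries 1 and 3. That cluster size was set by entries seen in an embryo library bears on all these differences.

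The somatic signal came from a handful of clusters. Of the 495 minor clusters, 427 had no read in any of the 10 somatic-cell libraries, and 68 had a read in at least 1 of them. That is 13.7% of the minor clusters, against 41 of the 121 larger clusters (33.9%), which hold more entries each. When only entries that name 1 cluster were counted, it was 55 minor clusters (11.1%) and 4 larger ones (3.31%). Of the 68, 26 were seen in a single library, 40 had at most 10 reads in all 10 libraries together, and 17 had no read in oocytes. Each Fb library showed 12 to 24 minor clusters, while each oocyte library showed 279 to 314. In every library of a group, 8 minor clusters were found in fibroblasts, 14 in NT BDC, 15 in IVF BDC and 217 in oocytes. The count for fibroblasts was 13 without the Fb library 1. Among the 121 larger clusters, 7 were found in every Fb library, 1 in every NT BDC library and 5 in every IVF BDC library. The count of larger clusters for NT BDC was 7 without the NT BDC library 1 and 4 without the library 3.

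All 10 somatic-cell libraries shared 7 minor clusters, 1.41% of 495, and the cluster on chromosome 3 was one of them. The larger clusters gave 1 of 121 (0.826%), chr13:77224209-77381007 with 250 entries, which had 2.12 to 28.7 RPM in somatic cells and 7469 in oocytes. The 7 minor clusters lay at chr3:80674203-80680024, chr14:476023-487893, chr1:150072006-150087016, chr23:31482036-31492386, chr13:12156089-12165941, chr19:44616212-44624700 and chr18:48937002-48945735. None overlapped another listed cluster, and they held 1 to 5 entries each. With at least 10 reads asked for in every library, 3 minor clusters remained and no larger one. By size, the 7 comprised 1 of the 195 clusters with 1 entry, 4 of the 196 with 2 to 4 entries, and 2 of the 104 with 5 to 9 entries. In oocytes these size classes held 2.49%, 15.0% and 82.5% of the minor-cluster reads.

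Together the 7 clusters held 69.0% ± 46.7 of the piRNA reads of fibroblasts (15.0% to 96.3%, SD, n = 3), 58.3% ± 9.80 of those of NT BDC (n = 3), 68.7% ± 20.7 of those of IVF BDC (n = 4), and 0.0166% ± 0.00129 of those of oocytes (n = 3). In blastocysts they held 1.03% (NT) and 0.310% (IVF). They were chosen for being found in somatic cells, so these shares describe them and test nothing. When the 7 and the 3 other clusters named below for fibroblasts or BDC were set aside, the remaining 485 minor clusters made up 0.00768% of listed reads in fibroblasts and 3.09% in oocytes, 403-fold lower in fibroblasts. Without the Fb library 3 the value was 0.00267%, 1157-fold lower. The clusters set aside were chosen for being found in Fb or BDC.

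Chromosome 3, from 80674203 to 80680024, is 5822 bases long and has 4 entries, all naming this cluster alone. It took the most piRNA reads of any minor cluster in the Fb libraries 1 and 4, with 74.0% (Wilson 95% interval 72.5% to 75.5%) and 73.4% (72.4% to 74.3%), but 0.983% in the Fb library 3. Such intervals cover counting error only, since the reads carry no molecular identifiers. Its level was 3616, 88.0 and 2202 RPM in the Fb libraries 1, 3 and 4 (2519, 94 and 6342 reads), against 51.4, 39.5 and 32.1 in the oocyte libraries 1, 3 and 4 (21, 20 and 16 reads). All Fb values lay above all oocyte values, and the Fb library 3 was the lowest of the 3 by far. Without it the Fb mean was 2909, against 1968 with it. The Fb library 1, which is then kept, is the one with the lowest sum of fibroblast miRNAs.

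Across development the same cluster was listed in all 42 libraries. In the 15 libraries of 2-cell and 8-cell embryos it ranged from 24.0 to 74.5 RPM (median 37.8), close to the oocytes. In NT morulae it ranged from 74.2 to 123. The IVF morulae gave 178, 41.6, 9634 and 111 in the libraries 1 to 4, and the value of 9634 is 242 reads of the shallow library 3. NT blastocysts had 78.1 to 158 (mean 116) and IVF blastocysts 76.6 to 140 (mean 113), so that both kinds lay above the oocytes and overlapped each other on this scale. On the authors' normalised reads both were lower than oocytes, with log2 fold changes of -1.64 (NT, adjusted p = 0.199) and -1.28 (IVF, adjusted p = 0.370), and neither scale gave a call. NT BDC had 18.6, 59.6 and 12.7, all under the NT blastocysts, while IVF BDC split into 616 and 566 in the libraries 1 and 2 and 39.0 and 50.8 in the libraries 3 and 4. The IVF BDC library 2 is the one with few cumulus-cell and epithelial miRNA reads, and the library 1 is not. IVF morulae had the highest group mean through the library 3, and fibroblasts the second highest through the libraries 1 and 4. In the order of the 12 group means all neighbours overlapped except IVF 8-cell embryos (45.8 to 71.8) and NT morulae. IVF 2-cell embryos (24.0 to 36.3) also lay below IVF 8-cell embryos.

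The entries of the chromosome 3 cluster did not keep the same proportions in every library. An entry that matches the genome exactly made up 67.4%, 68.1% and 47.7% of its reads in the Fb libraries 1, 3 and 4, and 61.9%, 70.0% and 81.3% in the oocyte libraries 1, 3 and 4. An entry with a mismatch at position 2, counted from 1 as the table gives it, made up 30.4%, 29.8% and 50.3% in these Fb libraries. In oocytes that entry had 3 reads in all. An entry with a mismatch at position 18 held 1.87%, 0% and 1.20% of the cluster in the Fb libraries 1, 3 and 4, but 8 of the 21 reads of the oocyte library 1.

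Tested entry by entry on the deposited log2 values, the entry with the mismatch at position 2 was higher in fibroblasts than in oocytes by 4.56 ± 0.938 (limma, adjusted p = 3.37e-05), with 3987 and 3 reads. It was 1 of only 2 entries of minor clusters called higher there among 1405 tested, with 495 lower, in a background of 1.36% higher and 40.4% lower over all 12039 small RNA entries tested. The second belonged to the chromosome 18 cluster, with 65 reads in 2 of 3 Fb libraries and none in oocytes (1.32 ± 0.470, adjusted p = 0.0179). NT BDC against Fb called 2 entries of minor clusters lower and none higher (0.108% and 0.565% of all), and both belonged to the chromosome 3 cluster. These were the exact entry, with 103 reads in NT BDC and 4785 in Fb (-4.21 ± 0.993, adjusted p = 0.0142), and the entry with the mismatch at position 2, with 69 and 3987 reads (-3.90 ± 0.938, adjusted p = 0.0168). Leaving out each library in turn gave 0 to 3 such calls. The Fb libraries enter both comparisons, and the clusters on chromosomes 3 and 18 were named for reads in every Fb library.

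Fb levels of this cluster against oocytes passed the test under some scalings only. The cluster was picked as the chromosome 3 minor cluster with the highest fibroblast level. The values below therefore describe it and are no independent test. On the authors' normalised reads, where limma was run on log2(reads + 1) for all 605 clusters that passed the filter, the log2 fold change was 1.64 ± 1.19 (SE, adjusted p = 0.231). In RPM it was 4.43 ± 1.29 (adjusted p = 0.00191), with voom on the recovered reads 4.41 ± 1.73 (adjusted p = 0.0166), and relative to piRNA reads 11.9 ± 1.80 (adjusted p = 9.44e-07). The direction was the same in all 4. The median of all 605 clusters was -4.36 on the authors' scale and -3.35 in RPM, so relative to that median the cluster stood 6.00 and 7.78 higher. Without the Fb library 3 the authors' scale gave 3.30 (adjusted p = 0.0198). Between NT BDC and Fb, the log2 fold change was -4.88 ± 1.19 (adjusted p = 0.0676), and it was -6.53 (adjusted p = 0.00148) without the Fb library 3.

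The chromosome 14 cluster, chr14:476023-487893, was found at 82.1 to 695 RPM across the 10 somatic-cell libraries. It has 2 entries, with mismatches at positions 10 and 11, which had 760 and 794 reads in fibroblasts. Its level was 670, 314 and 261 RPM in fibroblasts and 26.9, 21.7 and 24.0 in oocytes, a mean 17.1-fold higher in fibroblasts. NT BDC had 144, 189 and 92.5 and IVF BDC 669, 695, 290 and 82.1, and it led the minor clusters in 3 of the 7 BDC libraries. Every somatic-cell library lay above every oocyte library on this scale. The embryo levels were 9.80 to 73.5 in 2-cell and 8-cell embryos, 104 to 204 in NT morulae, 221 to 724 in NT blastocysts and 238 to 553 in IVF blastocysts. Fb against Oo gave a log2 fold change of 1.14 ± 1.16 on the authors' scale (limma, adjusted p = 0.406) and 3.92 ± 1.27 in RPM (adjusted p = 0.00543). NT blastocysts against oocytes gave 0.92 ± 1.09 (adjusted p = 0.491) and 4.04 ± 1.19 (adjusted p = 0.00594) on these 2 scales. The cluster was named for reads in every Fb and BDC library, so its comparison of Fb with oocytes is no independent test.

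The chromosome 1 cluster, chr1:150072006-150087016, has 5 entries, but all its somatic reads sat in 1 exact entry that names 3 clusters. Its reads can therefore belong to any of the 3. It had 319, 677 and 283 RPM in fibroblasts, against 46.5, 23.7 and 24.0 in oocytes, 13.6-fold higher in fibroblasts on the means. NT BDC had 274, 115 and 67.8 and IVF BDC 124, 597, 107 and 44.2, of which only the last fell within the range of the oocytes. The value of 597 is that of the IVF BDC library 2, which stands apart in its marker miRNAs. The log2 fold change of Fb against Oo was 0.89 ± 1.08 on the authors' scale (limma, adjusted p = 0.505) and 3.68 ± 1.14 in RPM (adjusted p = 0.00376). As this cluster too was named for reads in every Fb library, that comparison is no independent test.

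The other 4 persisting clusters were weaker. On chromosome 23 (31482036 to 31492386), levels were 40.2, 70.2 and 50.3 RPM in fibroblasts and 17.1, 11.8 and 10.0 in oocytes, with no overlap. On chromosome 19 (44616212 to 44624700) they were 11.5, 71.1 and 21.5 in fibroblasts and 7.34, 3.95 and 10.0 in oocytes. On chromosome 18 (48937002 to 48945735) they were 34.4, 3.74 and 23.6 in fibroblasts and 0, 11.8 and 4.01 in oocytes, which overlap. These 3 gave log2 fold changes for Fb against Oo of -0.74, -0.74 and -0.12 on the authors' scale and 1.96, 1.83 and 2.00 in RPM, a direction that turned with the scaling and passed the test on neither (limma, adjusted p of 0.574, 0.593 and 1 on the authors' scale and 0.104, 0.171 and 0.120 in RPM).

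The chromosome 13 cluster, chr13:12156089-12165941, was highest in embryos. Its single entry, with a mismatch at position 14, had 2493, 529, 78.1 and 502 RPM in the NT blastocyst libraries 1 to 4 and 72.6, 361 and 147 in IVF blastocysts. Oocytes had 7.34, 25.7 and 48.1, and fibroblasts 11.5, 122 and 29.5, which overlap the oocytes. NT BDC had 22.4, 5.00 and 70.4, all below the NT blastocysts, and IVF BDC 37.1, 191, 417 and 90.3, which overlap the IVF blastocysts. NT blastocysts against oocytes gave a log2 fold change of 1.33 ± 1.19 (limma, adjusted p = 0.334) on the authors' scale and 4.43 ± 1.22 in RPM (adjusted p = 0.00336). It was the only one of the 7 called lower in NT BDC than in NT blastocysts, with a log2 fold change of -3.77 ± 1.19 (limma, adjusted p = 0.0130), in a background where 21.5% of all 605 clusters were called lower. Relative to piRNA reads the direction turned, at 3.47 (adjusted p = 0.120). The call was lost without the NT blastocyst library 1 or the NT BDC library 3 (largest adjusted p 0.163).

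**Figure D2:**
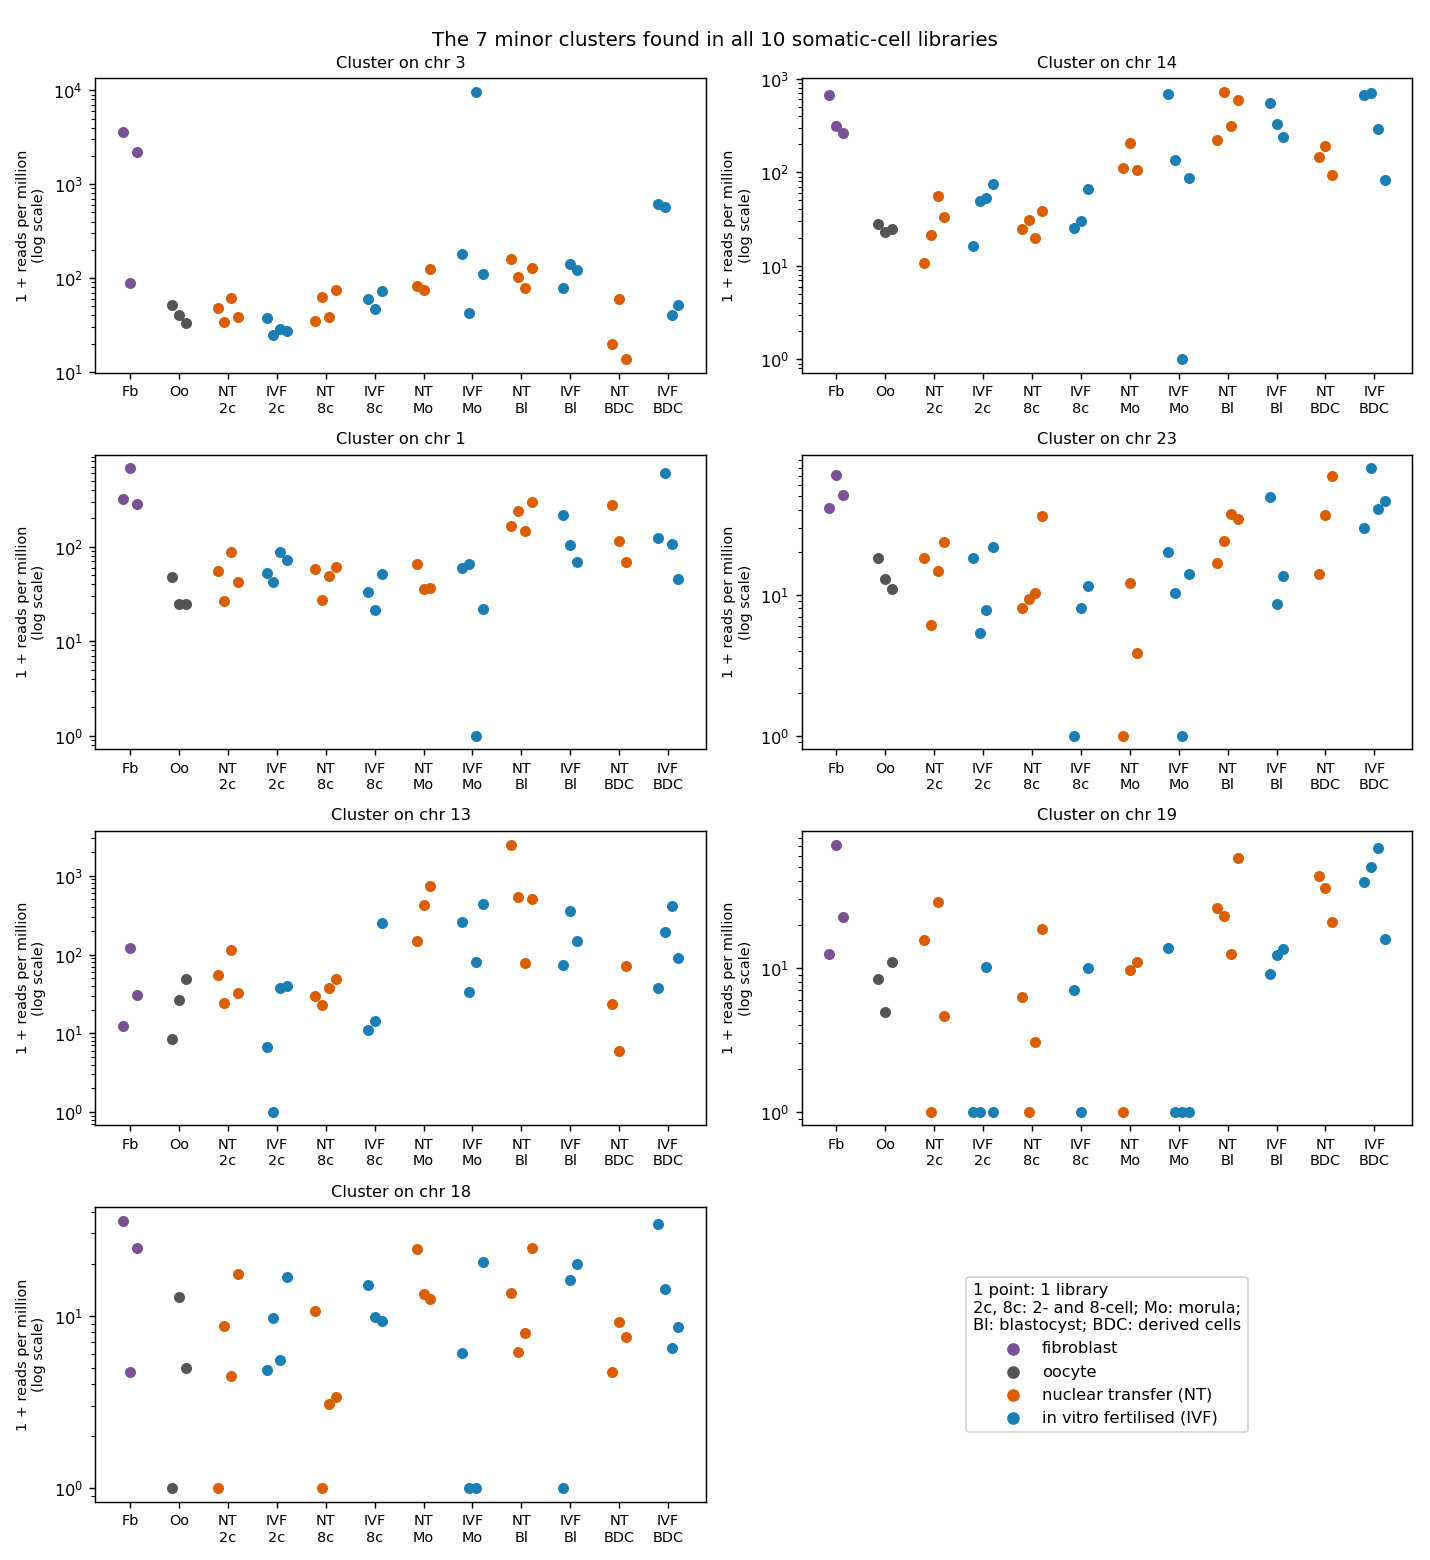
Levels of the 7 minor clusters found in all 10 somatic-cell libraries, as 1 + RPM on a log scale, with 1 point per library. Fibroblast values lie above the oocyte values for the clusters on chromosomes 3, 14, 1, 23 and 19 on this scale, but on the authors' normalised reads those on chromosomes 23 and 19 had a negative fold change and none passed the test.

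Outside the set of 7, 3 clusters were named for 1 kind of somatic cell. The cluster at chr25:28792054-28804717 was found in every Fb library, with 94.7, 10.3 and 57.6 RPM against 0, 7.90 and 20.0 in oocytes, but it had no read in the NT BDC library 1. Its highest value, 2866, was in the shallow IVF morula library 3. Of the clusters found in all BDC, chr22:54938001-54946805 was the leading minor cluster of the Fb library 3, where it held 78.5% of piRNA reads (Wilson 95% interval 77.7% to 79.3%). It had 0, 7029 and 4.86 RPM in the Fb libraries 1, 3 and 4 (0, 7509 and 14 reads), 185, 71.4 and 53.6 in NT BDC, 164, 39.2, 99.9 and 210 in IVF BDC, and 83.1, 9.87 and 10.0 in oocytes. Its Fb level thus rested on 1 library. All its somatic reads were in 1 entry that has a mismatch at position 3 and names 3 clusters.

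The cluster at chr17:72227045-72245964, also found in all BDC, was lower in fibroblasts than in oocytes. Its single entry had 0, 9.36 and 1.04 RPM in fibroblasts and 80.7, 65.2 and 44.1 in oocytes. It had 148 to 326 in NT blastocysts and 149 to 335 in IVF blastocysts, all above the oocytes on this scale, and 41.0, 45.9 and 24.7 in NT BDC. IVF BDC gave 78.3, 2.65, 17.7 and 7.58. For blastocysts against oocytes the fold change was negative on the authors' scale, at -1.37 in NT and -0.68 in IVF (log2, adjusted p of 0.286 and 0.672). Fb against Oo gave a log2 fold change of -6.28 ± 1.19 (limma, adjusted p = 3.06e-06), and -4.50 ± 1.26 in RPM (adjusted p = 0.00138). Relative to piRNA reads it was 0.04 (adjusted p = 1). IVF BDC against IVF blastocysts gave -3.77 ± 1.11 (adjusted p = 0.00552), and both calls on the authors' scale held with each library left out in turn.

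The leading minor cluster differed from one somatic-cell library to the next. In fibroblasts it lay on chromosome 3 in the libraries 1 and 4 and on chromosome 22 in the library 3. Among NT BDC it lay on chromosome 1 in the library 1 (30.2% of piRNA reads), on chromosome 14 in the library 3 (29.0%), and at chr5:5830149-5838978 in the library 4 (15.5%). The IVF BDC were led by chromosome 14 in the libraries 1 and 2 (34.4% and 28.8%), by chromosome 13 in the library 3 (26.4%) and by chromosome 22 in the library 4 (27.3%). These shares come from 486 to 9566 piRNA reads per library. The IVF morula library 1 was led by chromosome 14 (47.5%), whereas all oocyte, 2-cell, 8-cell and blastocyst libraries were led by the clusters chr9:23712000-23719387 or chr26:17967057-17974590.

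In oocytes the reads of minor clusters were concentrated in few of them. The median minor cluster had 5.97 RPM there, and 114 had none. The highest 8 held 55.4% of the summed minor-cluster level and the highest 50 held 82.4%. These 8 were the clusters on chromosomes 9 and 26 just named, chr13:10829681-10845993, chr13:10507008-10514800, chr4:97000-103993, chr3:29450080-29461322, chr7:86164071-86173024 and chr2:94494003-94503799. None of the 8 had a read in any of the 7 BDC libraries, and in fibroblasts only those on chromosomes 26 and 9 had any, with 4 reads in the Fb library 3 and 2 reads in the Fb library 4. The 8 share none of their members with the 7 clusters found in all somatic-cell libraries. Of all 495 minor clusters, 427 had no read in any of the 10 somatic-cell libraries. Most minor clusters are thus outside the set of 7 in the same way, and the lack of shared members does not set these 8 apart.

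The chromosome 26 cluster had 4179, 6227 and 4651 RPM in oocytes, 1004 to 1691 in NT blastocysts and 1176 to 1589 in IVF blastocysts. The 8 were chosen for their oocyte level, so their differences from oocytes describe them. The chromosome 9 cluster had 3108 to 8013 in NT blastocysts and 4754 to 9156 in IVF blastocysts, overlapping the 5062, 5125 and 4261 of oocytes. On the authors' normalised reads it was lower in both, by log2 fold changes of -3.24 ± 1.70 in NT and -2.37 ± 1.81 in IVF, without a call (limma, adjusted p of 0.0924 and 0.266). At chr2:94494003-94503799, by contrast, the mean was 17.6 in NT blastocysts, 44.0 in IVF blastocysts and 625.0 in oocytes. In NT BDC the chromosome 9 cluster was at least 1862-fold lower than in NT blastocysts, and in IVF BDC at least 3045-fold lower than in IVF blastocysts, taking 3 reads per library as the limit that a count of 0 allows. For the chromosome 26 cluster the same bounds were 459-fold and 633-fold.

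**Figure D3:**
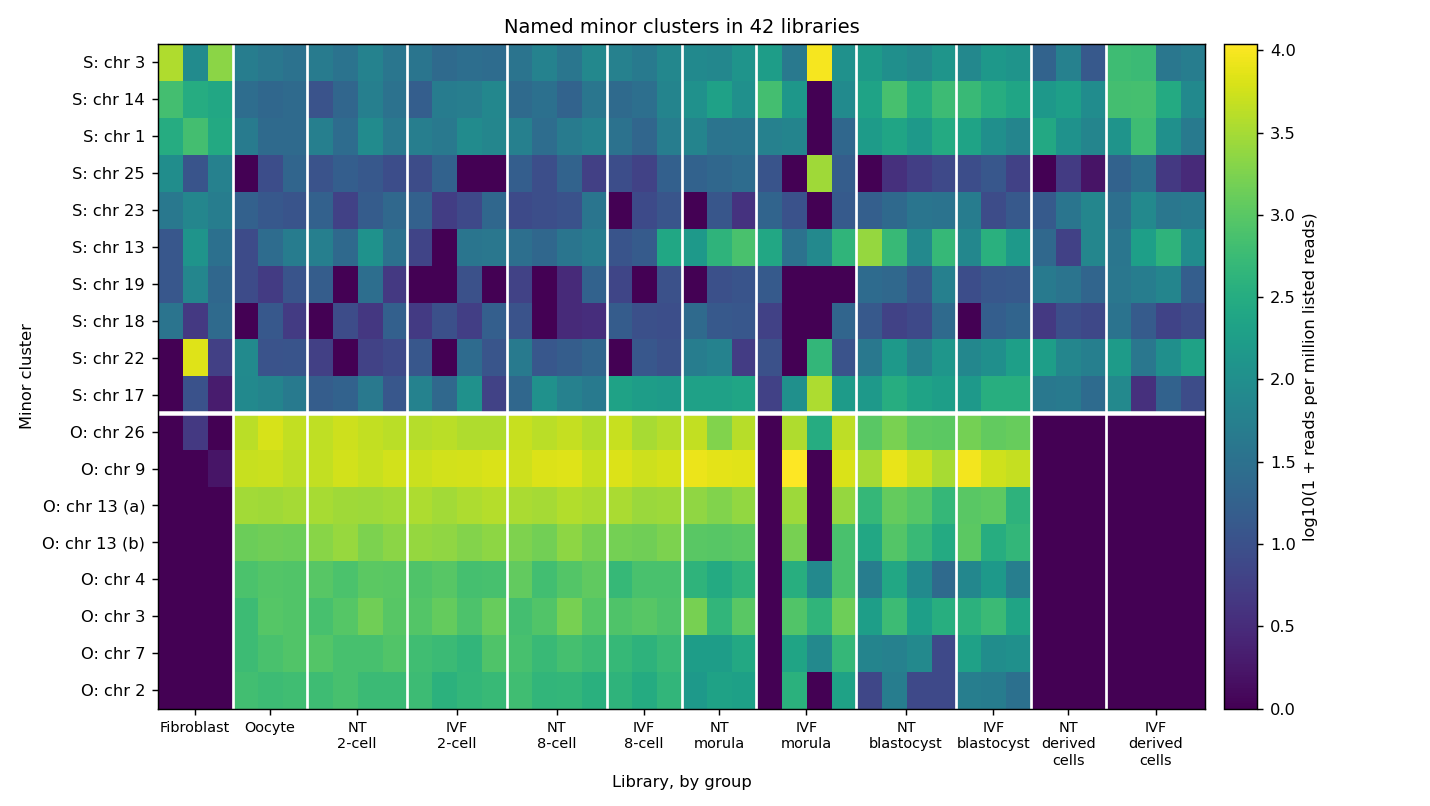
Levels of 18 minor clusters in the 42 libraries, coloured by log10(1 + RPM). Rows marked S are the 10 clusters named in fibroblasts or derived cells and rows marked O the 8 highest in oocytes; the O rows are at 0 in all 7 derived-cell libraries, and the IVF morula library 1 is dark in them as the derived cells are.

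Across all minor clusters, fibroblasts were lower than oocytes in 281 of 484 tested and higher in none on the authors' normalised reads (limma, Benjamini-Hochberg adjusted p under 0.05). Of all 605 clusters tested, 66.4% were called lower and 0% higher, and of the 484 minor ones 58.1% were called lower. The difference of these shares was not tested. The median log2 fold change was -2.73 over minor clusters and -4.36 over all. In RPM, 3 minor clusters were called higher (0.496% of all clusters tested) and 257 lower (62.5%). These 3 were the clusters on chromosomes 3, 14 and 1. With voom 4 were higher (0.661% of all) and 313 lower (71.7%), and the cluster on chromosome 25 joined the other 3 (adjusted p = 0.0494). Relative to piRNA reads 8 were higher (1.32% of all), and 46.3% of the minor clusters were lower (56% of all). All 7 persisting clusters were among the 8, but they were chosen for reads in every Fb library. So were the 3 called higher in RPM and the 4 called higher with voom. The largest falls on the authors' scale were at chr9:23712000-23719387, with -13.2 ± 1.81 (adjusted p = 1.66e-09), chr26:17967057-17974590, with -13.0 ± 1.57 (adjusted p = 1.19e-10), and chr13:10829681-10845993, with -12.6 ± 1.59 (adjusted p = 2.44e-10). Such values of clusters at or near 0 depend on the pseudocount. The last cluster had no recovered Fb read and was at least 1105-fold lower in fibroblasts. That bound has the limit given above for a count of 0.

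**Figure D4:**
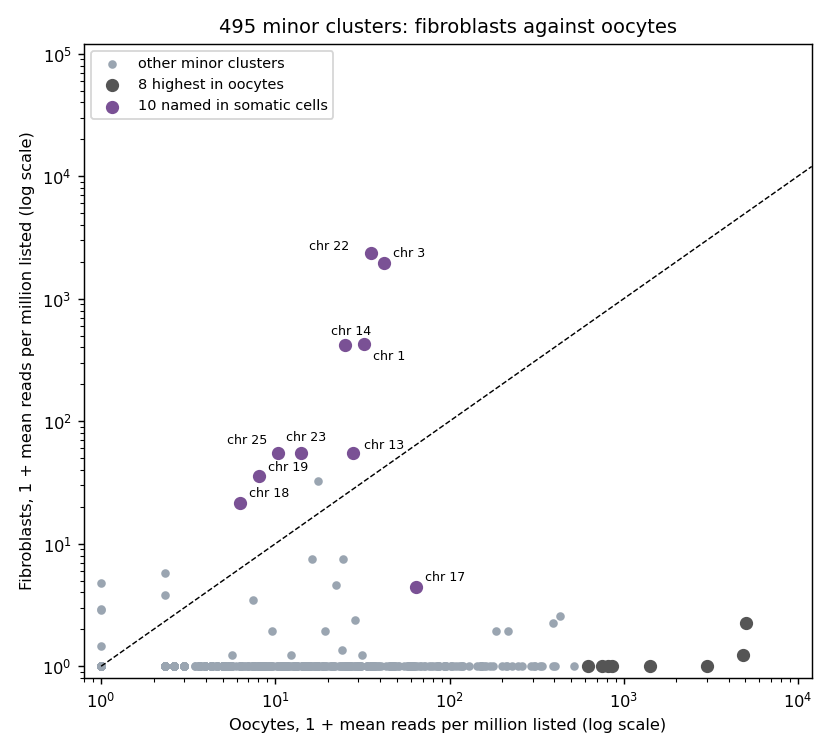
Mean level of each of the 495 minor clusters in fibroblasts (vertical axis) against oocytes (horizontal axis), as 1 + RPM on log scales; the dashed line marks equal levels. Of the 10 clusters named in somatic cells, 9 lie above the line and the one on chromosome 17 below it, on this scale only: on the authors' normalised reads those on chromosomes 3, 14, 1 and 25 had a positive fold change and the other 6 a negative one.

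Blastocysts were also compared with oocytes, which cannot tell maternal RNA that lasts from RNA made in the embryo. In NT blastocysts 1 minor cluster was higher and 256 were lower (0.165% and 62% of all 605 clusters), and in IVF blastocysts 2 were higher and 246 lower (0.331% and 59.2%). Among entries 2 were higher and 485 lower in NT (1.91% and 38.5% of all entries), and 1 was higher and 428 lower in IVF (1.49% and 33.9%). The median log2 fold change of clusters was -2.32 over minor clusters in both, against -3.63 and -3.28 over all clusters. Both comparisons share the oocyte libraries. In RPM the calls shifted to 13 higher and 154 lower in NT (2.15% and 33.2% of all), and 10 higher and 119 lower in IVF (1.65% and 23.5% of all).

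The larger of the 2 rises called in IVF blastocysts was at chr14:664182-674954, a cluster of 2 entries. It had 15.8, 5.17, 32.2 and 138 RPM in the NT blastocyst libraries 1 to 4, 12.1, 342 and 146 in IVF blastocysts, and 0, 0 and 4.01 in oocytes. IVF blastocysts against oocytes gave a log2 fold change of 3.84 ± 1.25 (limma, adjusted p = 0.00641), which was lost only without the IVF blastocyst library 3 (adjusted p = 0.0682). It had no read in fibroblasts and at most 10.99 RPM in BDC. The other calls rested on few reads. At chr9:71257-79979, 8 reads in all IVF blastocysts against none in oocytes gave 1.70 ± 0.755 (limma, adjusted p = 0.0460). This call was lost with voom (adjusted p = 0.0502) and when any library but the IVF blastocyst library 4 was left out (largest adjusted p 0.188). At chr8:24759007-24768006, 40 reads in NT blastocysts against none in oocytes gave 2.10 ± 0.859 (limma, adjusted p = 0.0282). It was lost relative to piRNA reads (adjusted p = 0.152) and when any library but the NT blastocyst library 3 was left out (largest adjusted p 0.102). The largest falls in NT blastocysts were at chr2:94494003-94503799, with -8.40 ± 1.16, chr16:7040424-7067024, with -7.18 ± 1.02, and chr8:49841561-49847015, with -7.17 ± 1.01 (adjusted p between 4.32e-08 and 4.84e-08). In IVF blastocysts they were at chrX:125075218-125082974, with -7.21 ± 1.12, chr16:7040424-7067024, with -6.90 ± 1.09, and chr10:82722628-82729977, with -6.85 ± 0.988 (adjusted p between 2.81e-07 and 1.19e-06).

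In derived cells minor clusters were called lower than in blastocysts and none higher on the authors' scale, in RPM and with voom, but some were called higher relative to piRNA reads. In NT BDC against NT blastocysts 40 of 484 were lower and none higher (21.5% and 0% of all 605 clusters), and in IVF BDC against IVF blastocysts 67 were lower and none higher (27.6% and 0%). At an unadjusted p under 0.05, 64 and 88 clusters passed in either direction. In RPM the calls were 105 lower in NT (35.2% of all) and 115 lower in IVF (37.7%), and none higher. Relative to piRNA reads 14 were higher and 103 lower in NT (2.31% and 33.9% of all), and 19 were higher and 132 lower in IVF (3.47% and 39.7%). Among entries, 18 of 1405 were lower in NT and 35 in IVF (1.88% and 4.24% of all 12039 entries), and none was higher (0.988% and 0.93%). Both were led by the clusters on chromosomes 9, 26 and 13 (10829681): the log2 fold changes were -10.0, -8.11 and -7.39 in NT, and -10.9, -8.69 and -7.89 in IVF, with adjusted p of at most 0.000120. Of the 8 clusters highest in oocytes, 7 were called lower in NT BDC and 8 in IVF BDC. Of the 7 persisting clusters, only that on chromosome 13 (12156089) was called on the authors' scale, lower in NT BDC, and none in IVF BDC. Relative to piRNA reads 6 of the 7 were called higher in NT BDC and all 7 in IVF BDC. The 7 were chosen for reads in every BDC library, so these calls describe them and test nothing. PiRNA reads, the base of that scaling, were 0.0750% of listed reads in NT BDC and 20.8% in NT blastocysts. In IVF they were 0.168% and 27.5%. Whether the NT step differed from the IVF step was tested as an interaction, and 0 of 484 minor clusters passed (limma; 1 at an unadjusted p under 0.05).

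Between the 2 kinds of somatic cell no minor cluster was called on the authors' scale, in RPM or with voom. Relative to piRNA reads 6 were called higher in NT BDC than in Fb (1.16% of all) and 4 in IVF BDC (0.826%). Among entries 2 were lower in NT BDC than in Fb (0.108% of all), both of the chromosome 3 cluster, as given above. For NT BDC against Fb 0 of 484 passed with limma and 0 with voom, with 3 and 7 at an unadjusted p under 0.05 (0% of all clusters called). For IVF BDC against Fb 0 passed with both, with 1 and 5 at an unadjusted p under 0.05 (0% called). The chromosome 14 cluster differed by -1.31 ± 1.16 in NT BDC and by -0.09 ± 1.09 in IVF BDC on the log2 scale (adjusted p = 1 for both), and the chromosome 1 cluster by -1.43 ± 1.08 and -1.36 ± 1.01 (adjusted p = 1 for both). These errors allow differences of several fold either way.

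Between cloned and fertilised 2-cell embryos some minor clusters were called, in some fits only. The NT 2-cell library 4, the one that holds every listed entry, is among the libraries compared. The list therefore favours clusters with reads in NT 2-cell embryos, most of all those with few reads. In NT 2-cell embryos 14 minor clusters were higher and 1 lower than in IVF 2-cell embryos (2.31% and 0.165% of all 605 clusters). No call was made in a fit of these 8 libraries alone or with voom. The largest rise was at chr10:80937012-80946023, with 22.0, 38.4, 22.4 and 26.2 RPM in NT and 0, 0, 16.0 and 5.25 in IVF 2-cell embryos (80 and 9 reads), a log2 fold change of 3.92 ± 0.890 (limma, adjusted p = 0.00442). At chr3:9532004-9539248 there were 18 reads in NT and none in IVF (adjusted p = 0.000212), and at chr8:77814127-77822986 there were 16 and none (adjusted p = 0.000844). The 1 cluster called lower in NT, chr5:76150002-76178975, had 4 reads in NT and 16 in IVF (adjusted p = 0.0207). Among entries 33 were higher and 2 lower (2.16% and 0.125% of all entries). Leaving out one library at a time gave 13 to 25 calls of clusters. Without the NT library 4 there were 10 higher and 3 lower, and 23 and 25 were called without the NT libraries 1 and 3. Leaving the library 4 out of the fit does not undo its part in the list.

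No minor cluster was called between NT and IVF at the 8-cell, morula, blastocyst or BDC stage with limma or voom (0% of all clusters in each with limma). At an unadjusted p under 0.05, limma gave 28, 90, 2 and 2 minor clusters at these stages. In RPM the morulae gave 89 higher and 1 lower in NT (28.3% and 0.165% of all), but the IVF morula libraries 1 and 3 stand apart, and without both of them no minor cluster was called. At the 8-cell stage 1 entry was called, higher in NT (0.00831% of all entries), at chr16:49219466-49228666, with 13 reads in NT and none in IVF (limma, 1.84 ± 0.368, adjusted p = 0.0403). No entry was called there in a fit of only these 7 libraries, or without the IVF 8-cell library 2 or 3, and without the IVF library 4 the 1 entry called was lower in NT. The 7 persisting clusters overlapped between NT and IVF at the morula, blastocyst and BDC stages in each case. For the chromosome 3 cluster the means were 116 in NT and 113 in IVF blastocysts, and 30.3 in NT BDC and 318 in IVF BDC, where the IVF libraries 3 and 4 lay within the NT range.

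Of all minor clusters, those whose 12 group means ranked most like those of the chromosome 3 cluster were the clusters on chromosome 13 (12156089), with a Spearman rho of 0.727, chromosome 22 (54938001), 0.713, chromosome 14 (476023), 0.692, chromosome 25 (28792054), 0.643, and chromosome 5 (5830149), 0.643. The 12 means share the same libraries and their depth, so the values are a description. Of these 5, the clusters on chromosomes 13 and 14 were also in the set found in all somatic-cell libraries.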

How the data were processed

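RNA under 200 nt was sequenced in 42 libraries. The authors deposited 1 table of variance-stabilised log2 values for 12345 entries. Per the submitters' processing notes, the authors used Trim Galore and DESeq2, and the builds bosTau8 and UMD3.1. No version, aligner or piRNA annotation is stated in these sources. All 188126 values above the lowest deposited log2 value converted to whole reads (tolerance 0.01) when the smallest of each library was set to 2 reads. Read counts and their intervals rest on that choice. With it no entry had a count of 1 in any library, so single reads may have been left out before the deposit. A cluster said to have no read is one without a recovered read. One normalised read stood for 0.0787 to 13.4 reads, depending on the library.

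Reads were summed by cluster. Clusters with at least 2 normalised reads in at least 3 libraries (605 of 616) were tested with limma 3.58.1 in R 4.3.3 on log2(normalised reads + 1), with all 12 groups in 1 fit, no covariate, and Benjamini-Hochberg adjustment at 0.05. Alternatives scaled the reads to the listed reads (RPM) or to all piRNA reads, or used voom on the recovered reads. Entries were tested the same way on the deposited log2 values. Shares were compared with exact permutation tests (Python 3.11.15, NumPy 2.4.6). The code was tested on simulated data. Replicate numbers were not used as pairs, and fits with them as a block are given below.

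The members, the lists and the tests were chosen with earlier results of these data known. Clusters were named by rule: that on chromosome 3; up to 12 found in every Fb library; up to 8 found in every BDC library; the 8 highest in oocytes; up to 3 called per direction and comparison; and the 5 most like chromosome 3. Genes in or near the clusters and their sequences are not used here.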

Additional observations from a re-analysis of the deposited data

Results flagged for a closer look

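In the 6 groups of 4 libraries, the RPM of each of the 7 persisting clusters, the minor clusters' share of piRNA reads and the number of minor clusters found were searched for a library far from the others by a gap test. Of these 54 tests 5 found one, all in a persisting cluster. Chance alone flags about 1 of 20 groups if values are normally spread. The chromosome 3 cluster (80674203) had 9634 in the IVF morula library 3, against 41.6 to 178 in the others. This library has 25119 listed reads. The chromosome 1 cluster (150072006) had 597 in the IVF BDC library 2, against 44.2 to 124 in the others. The chromosome 23 cluster (31482036) had 35.5 in the NT 8-cell library 4, against 7.05 to 9.31. The chromosome 19 cluster (44616212) had 9.12 in the IVF 2-cell library 3 and 12.7 in the IVF morula library 1, against 0 in all other libraries of these groups. These values are 4 and 10 reads. Where the others are all at 0, the gap test flags any library with reads.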

How the results depend on the processing

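Read counts of single clusters limit most results: 427 of 495 minor clusters had no read in somatic cells, and the list itself holds only entries seen in the NT 2-cell library 4. Without a filter, no result of 46 changed its direction or its side of the threshold, and with the stricter filter 1 of 32 lost its call. The causes of the changes below were not tested. The difference in the share of piRNA reads kept its sign under the alternatives except in these cases. With clusters of up to 4 entries as minor, IVF BDC exceeded Fb by 7.66 points, and without the IVF morula libraries 1 and 3 NT morulae exceeded IVF morulae by 0.202. Leaving out 1 library gave -0.0549 to 0.127 points for NT against IVF 2-cell embryos (negative without the IVF library 1 or 2 or the NT library 4) and -4.92 to 0.730 for NT against IVF BDC (positive without the NT library 4).

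The count of minor clusters called in either direction depended on the scaling. For Fb against Oo it was 122 with entries naming 1 cluster, against 281. For IVF blastocysts against oocytes it was 129 in RPM, 62 relative to piRNA reads, 63 with voom and 102 with entries naming 1 cluster, and for NT blastocysts 167, 77, 107 and 106 in that order. For IVF BDC against IVF blastocysts it was 28 with a pseudocount of 5, 115 in RPM, 151 relative to piRNA reads, 460 with voom and 21 with entries naming 1 cluster. For NT BDC against NT blastocysts it was 13, 105, 117, 274 and 16 in that order, and 77 with only those groups fitted. IVF BDC against Fb gave 4 relative to piRNA reads, and NT BDC against Fb gave 1 with a pseudocount of 5, 6 relative to piRNA reads and 1 with entries naming 1 cluster. NT against IVF gave 4 at the 2-cell stage in RPM and relative to piRNA reads, 0 with voom or only those groups and 7 with entries naming 1 cluster. It gave 1 at the 8-cell stage with a pseudocount of 5, 90 and 79 in morulae in RPM and relative to piRNA reads, and 4 in blastocysts relative to piRNA reads.

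Leaving out 1 library gave 251 to 272 calls for Fb against Oo, 238 to 258 and 220 to 236 for NT and IVF blastocysts against oocytes, 28 to 38 and 50 to 61 for NT and IVF BDC against blastocysts, 0 to 1 for NT BDC against Fb (1 without the Fb library 3), 13 to 25 for NT against IVF 2-cell embryos (23 and 25 without the NT libraries 1 and 3), 0 to 1 at the 8-cell stage (1 without the NT library 2) and 0 to 109 in morulae (96 and 109 without the IVF libraries 2 and 4). Among entries, only the groups compared gave 330 calls for Fb against Oo, 104 for NT BDC and 89 for IVF BDC against blastocysts, and 0 at the 2-cell and 8-cell stages. Without the IVF morula libraries 1 and 3 there was 1 in morulae. Leaving out 1 library gave 8 to 19 and 20 to 28 entries for NT and IVF BDC against blastocysts, 0 to 3 and 0 to 1 for NT and IVF BDC against Fb, 32 to 121 at the 2-cell stage, 0 to 2 at the 8-cell stage and 0 to 56 in morulae.

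With at least 10 reads asked for, 5 minor clusters were found in every Fb library, 8 in IVF BDC, 7 in NT BDC and 3 in all somatic-cell libraries, and with at least 2 normalised reads 9 in IVF BDC and 7 in NT BDC. Leaving out 1 library gave 8 to 13 for Fb (13 without the library 1).

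Deviations of same-numbered libraries correlated with r between -0.654 and 0.431 over all comparisons. For every pair r was positive in IVF blastocysts against oocytes, IVF BDC against IVF blastocysts, and NT against IVF 2-cell embryos and morulae. It was at most 0.235 there. In the other comparisons not every pair had a positive r. With the replicate number as a block, 281 minor clusters were called for Fb against Oo, 261 and 254 for NT and IVF blastocysts against oocytes, 35 and 60 for NT and IVF BDC against blastocysts and 15 at the 2-cell stage. The share of piRNA reads within numbers differed by 94.3 points for Fb against Oo, the 1 entry called at the 8-cell stage became 0, and chr9:71257-79979 lost its call.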
